A study of Homo sapiens with 4 samples.

Results

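Translation initiation and elongation factor genes were examined in peak lists of WDR5 and of the SS18::SSX fusion in HSSY II cells, an SS18::SSX1-positive synovial sarcoma line. The members were taken by symbol, as the protein-coding genes of the GENCODE annotation of hg38 whose names begin with EIF1 to EIF6, EEF1 or EEF2, and numbered 71 of 20033 protein-coding genes. The symbol rule brings in regulators beside the subunits: 54 members are factors or their isoforms, and the others are kinases, methyltransferases, binding proteins, a gene of related name and 2 readthrough genes. The readthrough genes, *EEF1E1-BLOC1S5* and *EEF1AKMT4-ECE2*, start in the same region as *EEF1E1* and *EEF1AKMT4* and are no independent observation.

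Chromatin was profiled by CUT&RUN, in which an antibody directs a nuclease to a protein on chromatin and the released fragments are sequenced. The cells had been treated for 4 days with DMSO, the vehicle, or with 2.5 μM MS67, a proteolysis-targeting chimera that recruits a ubiquitin ligase to WDR5 and so degrades it. Mouse NIH-3T3 cells were added to each sample as a spike-in. There were 4 libraries, 1 for each antibody and treatment, so no difference between treatments has a replicate check and no p-value is given.

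Translation starts when the eIF4 factors bind the cap of an mRNA, eIF3 joins it to the small ribosomal subunit, and eIF2 brings the initiator tRNA. The guanine nucleotide exchange factor eIF2B recharges eIF2, and kinases that phosphorylate eIF2 block that step under stress. The eEF1 and eEF2 factors then carry each aminoacyl-tRNA to the ribosome and move the ribosome along. WDR5 is a subunit of the KMT2/MLL complexes, which methylate lysine 4 of histone H3 at promoters, and SS18::SSX is part of SWI/SNF remodeling complexes. The comparisons ask which of these genes carried WDR5, which carried SS18::SSX, and which peaks were no longer listed after WDR5 degradation.

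A gene was counted as having a promoter peak when the centre of a peak lay from -1000 to +100 bp of any of its annotated start sites. Peak strength is given as -log10 q, where q is the false discovery rate that MACS2 assigned within that library, and as the pileup, the number of fragments over the summit, recovered here from the deposited fold and p. The lists held 35605 WDR5 peaks with DMSO, 14123 with MS67, 15141 SS18::SSX peaks with DMSO and 1175 with MS67. The WDR5 library with MS67 was the shallower of its pair, at 0.458 times the genome-wide coverage of the DMSO library, whereas the SS18::SSX library with MS67 was the deeper, at 1.36 times. The lowest pileup listed was 4 fragments for WDR5 with DMSO and 3 with MS67.

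The strongest WDR5 promoter peak among the members was at *EIF2B5*, which encodes the catalytic subunit of eIF2B. It is shown together with *EIF6*, whose product keeps the large ribosomal subunit apart from the small one, because in both the peak stood upstream of the gene's start. The windows are 151 bases of hg38 centred on the summit with DMSO, read on the strand of the gene, *EIF2B5* at chr3:184134321-184134471 (+) and *EIF6* at chr20:35285040-35285190 (-). Capitals mark matches to any of 6 promoter motifs searched on both strands: the CCAAT box (CCAAT), the GC box (GGGCGG), the E-box (CACGTG), ETS (CCGGAAG), YY1 (AAGATGG) and part of the NRF1 site (TGCGCA).
EIF2B5: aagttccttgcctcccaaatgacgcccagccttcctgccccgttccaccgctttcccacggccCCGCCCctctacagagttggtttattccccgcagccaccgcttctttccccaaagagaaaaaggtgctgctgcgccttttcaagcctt
EIF6: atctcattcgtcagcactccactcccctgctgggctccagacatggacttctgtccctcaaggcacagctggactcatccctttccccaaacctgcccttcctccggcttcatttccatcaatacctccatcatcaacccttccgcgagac
The *EIF2B5* window held a GC box and the *EIF6* window held none of the 6 motifs. Neither window overlapped an annotated exon.

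At *EEF2K* and *EIF4H* peaks reached into the 300 bases around the start that are shown here. *EEF2K* encodes the kinase that phosphorylates and inactivates eEF2, and *EIF4H* encodes a protein that stimulates the eIF4A helicase. The RefSeq promoters of GRCh38.p14, from 250 bases before the start to 50 after it, are chr16:22206028-22206327 (+) for *EEF2K* and chr7:74174106-74174405 (+) for *EIF4H*, with the same motifs in capitals.
EEF2K: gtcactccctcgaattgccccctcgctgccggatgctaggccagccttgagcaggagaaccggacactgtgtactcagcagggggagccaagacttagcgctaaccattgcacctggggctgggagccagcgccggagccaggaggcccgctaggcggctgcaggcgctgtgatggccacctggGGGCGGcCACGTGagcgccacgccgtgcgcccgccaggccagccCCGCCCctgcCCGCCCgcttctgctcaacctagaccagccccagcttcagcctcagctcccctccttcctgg
EIF4H: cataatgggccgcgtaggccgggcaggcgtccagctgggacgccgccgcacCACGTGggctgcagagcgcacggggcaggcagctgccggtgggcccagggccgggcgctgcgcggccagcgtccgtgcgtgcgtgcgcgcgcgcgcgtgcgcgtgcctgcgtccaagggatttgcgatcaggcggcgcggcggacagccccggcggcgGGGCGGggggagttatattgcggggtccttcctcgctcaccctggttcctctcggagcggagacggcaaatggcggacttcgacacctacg
Each held an E-box, beside 3 GC boxes in *EEF2K* and 1 in *EIF4H*. The WDR5 peak with DMSO covered 275 of the 300 bases of the *EEF2K* window. A WDR5 peak listed with MS67 covered 24 at the downstream end of that window. Its -log10 q was 2.39, and it was not the strongest MS67 peak within 2 kb. At *EIF4H* the WDR5 peak with MS67 covered 49 bases and the SS18::SSX peak with DMSO covered 15, both at the upstream end.

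With DMSO, 40 of the 71 members had a WDR5 promoter peak, 56.3% with an exact 95% Clopper-Pearson interval of 44 to 68.1%, against 43% of all protein-coding genes. These intervals cover counting error only. Of the 54 members that are factors or their isoforms, 27 had one, 50% with an interval of 36.1 to 63.9%, which held the 43% of all genes. Among genes with a CpG-rich promoter the gap was smaller, at 35 of 60 members, 58.3% with an interval of 44.9 to 70.9%, against 57.1%. CpG-rich promoters made up 84.5% of the members and 62.0% of all genes. With 1 canonical start per gene the shares were 49.3% of the members and 31.2% of all genes; the members had a median of 8 annotated starts and all genes 5. Within 2 kb of a start, 55 members had a WDR5 peak, 77.5% against 62.7%. The members' peaks were of ordinary strength, with a median -log10 q of 5.41 against 5.30 over all genes called and a median pileup of 13 fragments against 14.

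**Figure D1:**
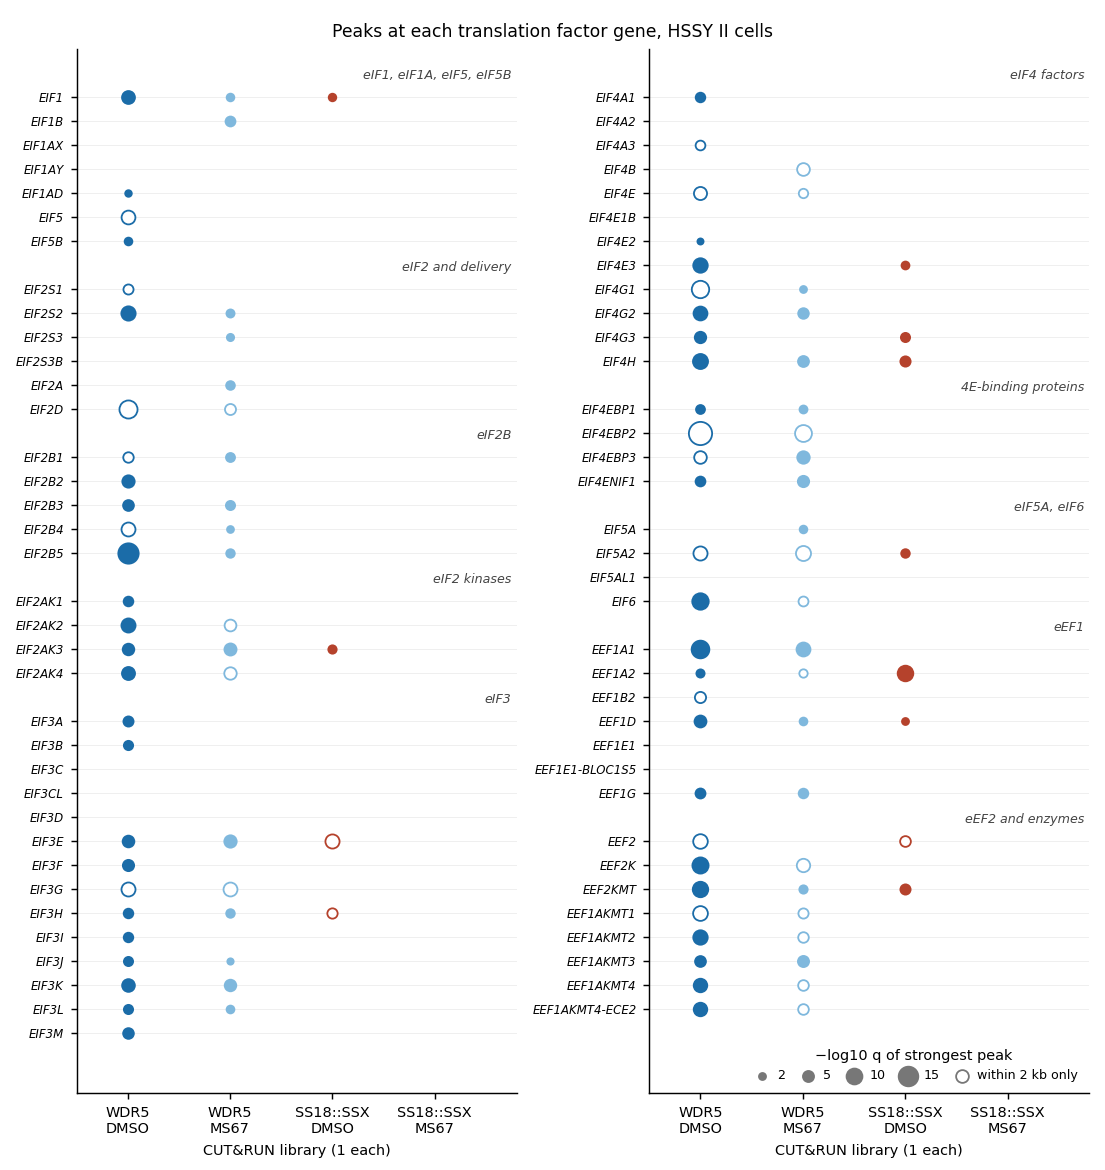
Peaks at each of the 71 genes in the 4 libraries, 1 column each, grouped by role. Filled circles are promoter peaks, open circles are peaks found only in the wider window of 2 kb around a start, and the area grows with -log10 q of the strongest peak. The SS18::SSX column with MS67 is empty, and the largest filled circle is *EIF2B5* with WDR5 and DMSO.

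In each role group below, the exact interval for the share with a WDR5 promoter peak with DMSO held the 43% of all genes. Among the genes for scanning and start codon choice, 3 of 7 had a WDR5 promoter peak with DMSO. *EIF1*, whose product guards against starting at the wrong codon, had the strongest, with -log10 q of 6.74 and a pileup of 12 fragments, followed by *EIF5B*, which joins the ribosomal subunits, at 2.46 and *EIF1AD*, a gene of related name, at 1.75. *EIF5*, whose product makes eIF2 hydrolyse its GTP, had a peak of 5.83 within 2 kb, and *EIF1B*, *EIF1AX* and *EIF1AY* had none. Of the 6 genes of eIF2 and of tRNA delivery, *EIF2S2*, the beta subunit, was the 1 with a promoter peak, at 8.20 and 19 fragments. *EIF2S1*, the alpha subunit that the kinases phosphorylate, and *EIF2D* had a peak within 2 kb, at 2.80 and 10.5, and *EIF2S3*, *EIF2S3B* and *EIF2A* had none with DMSO.

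The exchange factor and the kinases both act on eIF2. Of 5 eIF2B subunit genes, 3 had a promoter peak, with an interval for the share of 14.7 to 94.7% that held the 43% of all genes. *EIF2B5* reached 16.1 with 28 fragments and ranked 126 of the 8607 genes called, *EIF2B2* reached 6.17 and *EIF2B3* 4.80. *EIF2B1* and *EIF2B4* had peaks within 2 kb, at 3.07 and 5.97. All 4 kinase genes had a promoter peak, with an interval from 39.8% that also held the share of all genes: *EIF2AK2* (PKR, activated by double-stranded RNA) at 7.99, *EIF2AK4* (GCN2, activated by uncharged tRNA) at 6.87, *EIF2AK3* (PERK, activated in the endoplasmic reticulum) at 5.48 and *EIF2AK1* (HRI, activated by lack of heme) at 3.86.

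The eIF3 complex, which holds the mRNA and the small subunit together, had 10 of 14 genes with a promoter peak. This is 71.4% with an interval of 41.9 to 91.6%, which held the 43% of all genes. Their -log10 q ran from 3.48 at *EIF3J* to 6.56 at *EIF3K*, with *EIF3A*, *EIF3B*, *EIF3E*, *EIF3F*, *EIF3H*, *EIF3I*, *EIF3L* and *EIF3M* between them. *EIF3H* had a stronger peak of 11.2 outside the promoter window, within 2 kb, as did *EIF2AK3* at 9.15, *EEF1G* at 8.99, *EIF4EBP1* at 8.12 and *EEF1A2* at 7.31 in their own groups. *EIF3G* had a peak of 6.03 within 2 kb, and *EIF3C*, *EIF3CL* and *EIF3D* had none. Among the 12 eIF4 genes, 6 had a promoter peak: *EIF4H* at 9.04, *EIF4E3* at 8.43, *EIF4G2* at 7.77, *EIF4G3* at 5.33, *EIF4A1* at 3.79 and *EIF4E2* at 1.49. *EIF4A1* encodes the helicase that unwinds the leader of the mRNA, the *EIF4G* genes encode scaffolds, and *EIF4E2* and *EIF4E3* encode relatives of the cap-binding protein. The cap-binding protein gene *EIF4E* and the scaffold gene *EIF4G1* had peaks within 2 kb, at 5.16 and 9.65, as did *EIF4A3*, whose product belongs to the exon junction complex, at 2.58.

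The 4E-binding proteins hold eIF4E away from eIF4G until mTOR phosphorylates them. *EIF4EBP2* had the highest -log10 q of any member in either window, 17.7 with 36 fragments, but its peak lay within 2 kb and not in the promoter window, with the summit at 1428 bp downstream of the start. *EIF4EBP1* and *EIF4ENIF1*, which carries eIF4E into the nucleus, had promoter peaks of 3.29 and 3.99, and *EIF4EBP3* had a peak of 4.76 within 2 kb. *EIF6* reached 10.7 with 21 fragments. *EIF5A2* had a peak of 6.11 within 2 kb, while *EIF5A*, whose product eases peptide bond formation at difficult sequences, and its copy *EIF5AL1* had none with DMSO.

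Among the elongation factors, *EEF1A1*, which brings aminoacyl-tRNA to the ribosome in most cells, had the second strongest WDR5 promoter peak, at 12.3 with 24 fragments. *EEF1D* had 5.81, *EEF1G* 4.11 and *EEF1A2*, the form used in muscle and neurons, 2.77. The last had the same pileup as *EEF1A1*, 24 fragments, over a higher local background, with a fold of 2.63 against 7.45. *EEF1D*, *EEF1G* and *EEF1B2* encode subunits of the complex that recharges eEF1A with GTP. *EEF1B2* had a peak of 3.59 within 2 kb and *EEF1E1* and *EEF1E1-BLOC1S5* had none. *EEF2*, the translocase, had a peak of 6.60 within 2 kb and none in the promoter window. The genes for enzymes that modify elongation factors, the kinase gene *EEF2K* and the lysine methyltransferase genes of eEF1A and eEF2, had promoter peaks in all but *EEF1AKMT1*, which had one of 6.77 within 2 kb: *EEF2K* at 10.4, *EEF2KMT* at 9.52, *EEF1AKMT2* at 8.35, *EEF1AKMT4* and its readthrough gene at 7.38 from the same peak, and *EEF1AKMT3* at 4.83.

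A WDR5 peak within 2 kb of a start was listed with DMSO at 77.5% of the members and 62.7% of all genes. With MS67 only, it was listed at a further 3.36% of all genes, so having none was less frequent at the members. No WDR5 peak lay within 2 kb of a start in either list at 11 members: *EEF1E1*, *EEF1E1-BLOC1S5*, *EIF1AX*, *EIF1AY*, *EIF2S3B*, *EIF3C*, *EIF3CL*, *EIF3D*, *EIF4A2*, *EIF4E1B* and *EIF5AL1*. Of these, 6 have a near-identical copy elsewhere in the genome, at which reads can be split or dropped in mapping, and how multiply mapped reads were treated beyond removal of nonprimary alignments is not given in the sources used here. *EIF3D*, which encodes the cap-binding subunit of eIF3, has no such copy. Without the 9 genes that have such copies, 39 of 62 members, or 62.9%, had a WDR5 promoter peak with DMSO. Such genes were left out of the members only, and the 43% of all genes still counted theirs.

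The shares were set beside other genes of the translation machinery. A WDR5 promoter peak with DMSO was listed at 31 of 90 cytosolic ribosomal protein genes, 34.4% with an interval of 24.7 to 45.2%, which held the 43% of all genes. For mitochondrial ribosomal protein genes it was 49 of 78, or 62.8%, for cytosolic aminoacyl-tRNA synthetase genes 13 of 22, or 59.1%, and for genes of termination, recycling and regulation 18 of 33, or 54.5%. The interval of the factor genes held the shares of the latter 3 lists and overlapped that of the ribosomal protein genes at its lower end.

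**Figure D2:**
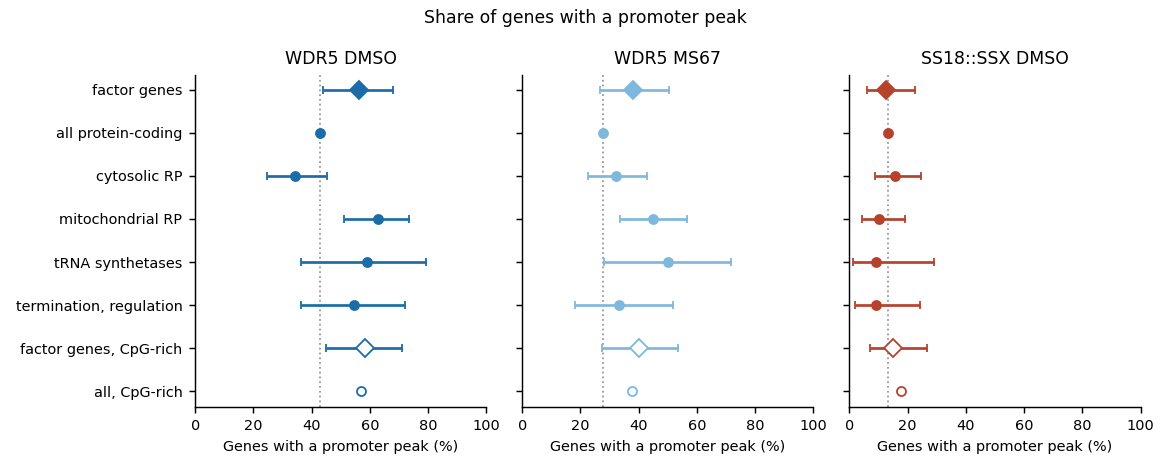
Share of genes with a promoter peak (x axis, percent) in 3 libraries, 1 panel each, for the factor genes (diamonds), all protein-coding genes (dotted line) and other translation genes. Bars are exact 95% intervals, and open symbols count only genes with a CpG-rich promoter. The factor genes' diamond for WDR5 with DMSO, at 56.3%, lies right of the dotted line at 43%, whereas the open diamond and open circle, at 58.3% and 57.1%, nearly coincide.

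A peak in a promoter window was counted at every gene whose window held it, neighbours included. Another gene, protein-coding or lncRNA, started on the opposite strand within 1000 bp upstream of 31 members, 43.7% against 23.4% of all genes. Such divergent members had a WDR5 promoter peak with DMSO in 20 of 31 cases and the other members in 20 of 40, 64.5% and 50%, against 52.4% and 40.1% over all genes. At 7 of the 40 members called, the start of another protein-coding gene was nearer to the summit than any start of the member, 17.5% against 12.4% of all genes called. These were *EEF1AKMT4* (its own readthrough gene), *EEF1D*, *EIF1AD*, *EIF3K*, *EIF4E2*, *EIF4E3* and *EIF4ENIF1*. At *EIF1AD* the summit was 6 bp from the start of *BANF1* and 310 bp from its own, and at *EIF4E3* it was 25 bp from the start of *GPR27* and 256 bp from its own.

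The summit of the strongest WDR5 peak within 2 kb of the canonical start lay further upstream at the members than at genes in general. Over 54 members with DMSO the median position was -296.5 bp, against 124 bp over all 11521 genes, and 21 members, or 38.9% with an interval of 25.9 to 53.1%, had the summit at or downstream of the start, against 56.4%. The stretch from over 100 to 1000 bp downstream held 16.7% of the members, with an interval of 7.92 to 29.3%, against 32.9%. Cytosolic ribosomal protein genes had a median of -432 bp and 22.5% downstream, with an interval of 10.8 to 38.5% that overlapped that of the members. Mitochondrial ribosomal protein genes had a median of -131 bp and 43.3% downstream, with an interval of 31.2 to 56.0%, so a lower share than all genes was not particular to the members. With MS67 the median over 41 members was 95 bp, with 53.7% downstream, against 128 bp and 62.3% over all genes, so the gap was smaller.

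**Figure D3:**
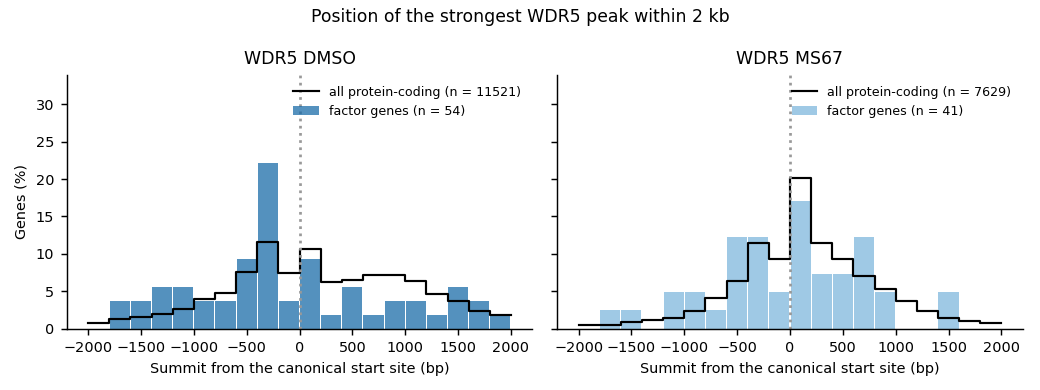
Position of the strongest WDR5 summit within 2 kb (x axis, bp from the canonical start, negative upstream) as the percent of genes in bins of 200 bp, for the factor genes (bars) and all protein-coding genes (black line). With DMSO the tallest bar lies between -400 and -200 bp. With MS67 the tallest bar is the one just downstream of the start.

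With MS67, 27 members had a WDR5 promoter peak, 38.0% with an interval of 26.8 to 50.3%, against 27.7% of all genes. Among CpG-rich promoters it was 40% of the members against 37.7%. Within 2 kb it was 42 members, 59.2% against 41.8%. The median -log10 q was 3.14 at the members and 3.77 over all genes called, and the median pileup of the members was 7 fragments. *EEF1A1* again had the strongest promoter peak, at 7.82 with 15 fragments, followed by *EIF4EBP3* at 6.31, *EIF3E* at 6.22, *EIF2AK3* at 5.93, *EIF3K* at 5.46, *EIF4ENIF1* at 5.23, *EEF1AKMT3* at 5.06, *EIF4H* at 4.91, *EIF4G2* at 4.6 and *EIF1B* at 4.03. At *EIF3E*, *EIF3H* and *EIF2AK3* the strongest promoter peak with MS67 was another one than with DMSO, at a different annotated start. The start of another protein-coding gene was nearer to the MS67 summit than any of the member's own at 5 of the 27, 18.5% against 16.1% of all genes called: *EEF1D*, *EIF2A*, *EIF2AK3*, *EIF3K* and *EIF4ENIF1*. At *EIF2AK3* the nearer start, 302 bp away, was that of *RPIA*. *EIF4EBP2* had 9.06 within 2 kb, with 18 fragments.

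Of the 40 members with a WDR5 promoter peak with DMSO, 21 had none with MS67, 52.5% with an interval of 36.1 to 68.5%, against 50.1% of all genes called with DMSO. Within 2 kb, 18 of 55 members had no MS67 peak, 32.7% against 38.7%. The loss at the members was therefore near that of genes in general, and its side changed with the window. Of the 21, 8 still had a WDR5 peak within 2 kb with MS67: *EEF1A2*, *EEF1AKMT2*, *EEF1AKMT4* and its readthrough gene, *EEF2K*, *EIF2AK2*, *EIF2AK4* and *EIF6*. At 3 of these 8, *EEF1AKMT4*, its readthrough gene and *EIF2AK4*, the MS67 peak overlapped the DMSO peak itself and its centre lay outside the promoter window. The summit at *EEF1AKMT4* was 121 bp downstream of the start with DMSO and 118 bp with MS67. The other 13 were *EIF1AD*, *EIF2AK1*, *EIF2B2*, *EIF3A*, *EIF3B*, *EIF3F*, *EIF3I*, *EIF3M*, *EIF4A1*, *EIF4E2*, *EIF4E3*, *EIF4G3* and *EIF5B*.

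By role, 5 of the 10 eIF3 genes had a promoter peak in both lists, a loss of 50% against the 50.1% of all genes. At *EIF3J*, *EIF3K* and *EIF3L* the MS67 peak overlapped the DMSO peak, and at *EIF3E* and *EIF3H* it was a different peak. Of the 4 kinase genes, *EIF2AK3* was the 1 with a promoter peak in both lists, but *EIF2AK4* had an overlapping MS67 peak and 3 of the 4 had an MS67 peak within 2 kb. *EIF2B5* and *EIF2B3* were listed in both treatments, as were *EIF1*, *EIF2S2*, *EIF4G2*, *EIF4H*, *EIF4EBP1*, *EIF4ENIF1*, *EEF1A1*, *EEF1D*, *EEF1G*, *EEF1AKMT3* and *EEF2KMT*. At *EEF2K* the strongest summit within 2 kb was at -226 bp with DMSO and 803 bp with MS67, and *EEF1AKMT2*, *EIF2AK2*, *EIF2AK3*, *EIF3H* and *EIF6* likewise had it upstream of the start with DMSO and downstream with MS67. These 6 were 17.1% of the members with a summit in both lists, against 17.7% of all such genes. The opposite was seen at *EEF1A2*, *EEF1AKMT3* and *EIF4EBP3*, 8.57% against 11.6%, so the shares were near those of genes in general. Among 35 members with a summit in both lists, 17 had them within 200 bp of each other, 48.6% against 38.9% of all such genes.

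A WDR5 promoter peak was listed with MS67 and not with DMSO at 8 members. This is 11.3%, with an interval of 4.99 to 21% that held the 6.24% of all genes. Of these, *EIF2B1* with -log10 q of 3.35, *EIF2B4* with 1.92, *EIF4EBP3* with 6.31 and *EIF4G1* with 1.97 had a DMSO peak within 2 kb. *EIF1B* with 4.03, *EIF2A* with 3.14, *EIF2S3* with 2.15 and *EIF5A* with 2.43 had none in that window with DMSO. Within 2 kb the count was 5, the latter 4 genes and *EIF4B*, a helicase cofactor, at 4.86. This is 7.04%, with an interval of 2.33 to 15.7% that held the 3.36% of all genes. Pileups at the promoter peaks of the 8 genes were 5 to 11 fragments.

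The strongest DMSO promoter peak of each member was then compared with the MS67 peak over the same place. An MS67 peak overlapped it at 20 of the 40 members, 50% against 39.7% of all genes, and lay within 1 kb of it at 25. *EIF2B5* had 28 fragments at its summit with DMSO and 9 with MS67, *EEF1A1* had 24 and 15, *EIF4H* had 21 and 12, and *EEF1AKMT3* had 14 and 12. The MS67 pileup was the lower of the pair in each of these 4 genes, in a library of lower coverage. Pileups were then divided by the genome-wide coverage of their own library. Of these 20 members, 16 had a ratio of MS67 to DMSO above 1, with a median of 1.28 against 1.27 over all overlapped genes. The ratio was 0.701 at *EIF2B5*, with an interval of 0.291 to 1.53, 1.36 at *EEF1A1*, with 0.665 to 2.71, and 1.87 at *EEF1AKMT3*, with 0.790 to 4.36. The interval of every one of the 20 included 1. These pairs were selected for being listed with both treatments, and the values are not scaled by the spike-in, so they give the height over the rest of the same library and not the amount of WDR5 on chromatin.

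Depth bears on the 20 members without an overlapping peak. At the coverage of the MS67 library, 18 of their DMSO peaks would correspond to at least 3 fragments, the lowest pileup listed there, and 5 to at least 8, the median pileup of that list. The members at these 5 were *EEF1A2*, *EEF1AKMT2*, *EEF2K*, *EIF2AK2* and *EIF6*. Each of the 5 had an MS67 peak within 1 kb. For the remainder, absence from the MS67 list is not distinguishable from the shallower depth with these files, and the part of depth was not tested.

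**Figure D4:**
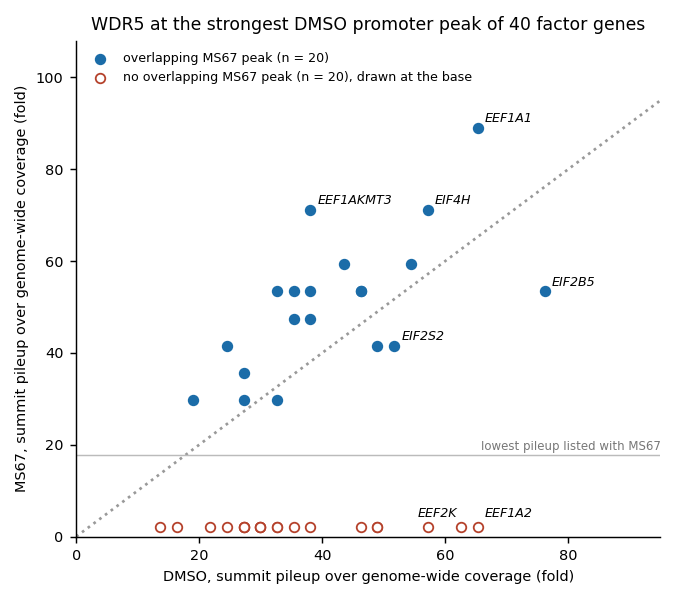
WDR5 summit pileup over genome-wide coverage (fold) with DMSO (x axis) and MS67 (y axis) at the strongest DMSO promoter peak of 40 factor genes. Filled points had an overlapping MS67 peak, open points did not and are drawn near the base, the dotted line marks equal values, and points can coincide. Of the 20 filled points, 16 lie above the dotted line, and *EIF2B5* lies below it.

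SS18::SSX was found at fewer of these promoters. With DMSO, 9 members had an SS18::SSX promoter peak, 12.7% with an interval of 5.96 to 22.7%, against 13.4% of all genes, and within 2 kb 12 members did, 16.9% against 21.8%. Both shares were near or below those of genes in general. *EEF1A2* had the highest -log10 q, 9.72, with a pileup of 56 fragments and rank 80 of 2684 genes called. Its fold over the local background, 3.29, was the lowest of the 9, with the others at 3.37 to 5.49. The others were *EIF4H* at 4.32, *EEF2KMT* at 4.27, *EIF4G3* at 3.48, *EIF5A2* at 3.05, *EIF2AK3* at 2.86, *EIF4E3* at 2.56, *EIF1* at 2.35 and *EEF1D* at 1.99, with 7 to 12 fragments each. Within 2 kb, *EIF3E* at 6.14, *EEF2* at 3.27 and *EIF3H* at 2.96 were added, and *EIF4E3* had a stronger peak of 7.51. None of the 6 genes of eIF2 and tRNA delivery or the 5 of eIF2B had an SS18::SSX peak within 2 kb, against 21.8% of all genes. These groups are small: in the promoter window, their counts of 0 allowed shares of up to 45.9% and 52.2% by the exact interval.

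Both proteins had a promoter peak with DMSO at 8 members, 11.3% against 9.34% of all genes, and a peak within 2 kb at 12 members, 16.9% against 19.3%. *EIF5A2* was the 1 member of the 9 without a WDR5 promoter peak, though it had one within 2 kb. Of the 8, *EEF1D*, *EEF2KMT*, *EIF1*, *EIF2AK3* and *EIF4H* kept a WDR5 promoter peak with MS67, and *EEF1A2*, *EIF4E3* and *EIF4G3* did not. Among members with a WDR5 promoter peak, 20% had SS18::SSX, against 21.7% of all such genes.

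With MS67 no member had an SS18::SSX promoter peak. A count of 0 of 71 allows a share of up to 5.06% by the exact interval, against 0.724% of all genes, and within 2 kb the count was also 0, against 1.75%. Hence all 9 promoter peaks were lost, as were 95.9% of those over all genes, and all 12 within 2 kb, against 92.7%. The loss at these genes was that of the list as a whole, which went from 15141 to 1175 peaks in a library of higher coverage. Scaled to that coverage, all 9 peaks would have reached the lowest pileup listed, 7 fragments, and 1, at *EEF1A2*, the median of 30. Over whole genes with 2 kb on each side, a single SS18::SSX peak with MS67 was counted, over *EEF1AKMT4* and its readthrough gene alike.

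The sequence around the canonical start was then described for all 71 members and 20032 genes, over 250 bases before it and 50 from it. Many mRNAs of the translation machinery begin with a 5′ terminal oligopyrimidine (TOP) tract, through which mTOR signaling controls their translation. A start with C followed by 4 pyrimidines was found at 21 members, 29.6% with an interval of 19.3 to 41.6%, against 4.59% of all genes and 68.9% of cytosolic ribosomal protein genes. Of these, 10 were among the 14 eIF3 genes, counting the near-identical *EIF3C* and *EIF3CL*, and 4 were among the 7 eEF1 genes. Another 4, *EIF2A*, *EIF2D* and the near-identical *EIF2S3* and *EIF2S3B*, were among the 6 genes of eIF2 and tRNA delivery. The subunit genes *EIF2S1* and *EIF2S2* had no TOP start. None was found among the 5 eIF2B, 4 kinase and 4 4E-binding protein genes, which are too few to set against the 4.59% of all genes. *EEF1A1*, *EEF2* and *EIF3D* are shown as RefSeq promoters of GRCh38.p14, with the tract at the start and the motifs above in capitals, since they carry a TOP tract and differ in WDR5. They lie at chr6:73520983-73521282 (-), chr19:3985414-3985713 (-) and chr22:36529117-36529416 (-).
EEF1A1: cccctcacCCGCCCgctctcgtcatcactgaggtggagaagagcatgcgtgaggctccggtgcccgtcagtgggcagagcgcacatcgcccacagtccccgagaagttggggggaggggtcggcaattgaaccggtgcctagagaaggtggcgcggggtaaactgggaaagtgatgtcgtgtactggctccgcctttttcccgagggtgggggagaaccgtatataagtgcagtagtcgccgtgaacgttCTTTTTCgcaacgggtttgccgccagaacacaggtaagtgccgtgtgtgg
EEF2: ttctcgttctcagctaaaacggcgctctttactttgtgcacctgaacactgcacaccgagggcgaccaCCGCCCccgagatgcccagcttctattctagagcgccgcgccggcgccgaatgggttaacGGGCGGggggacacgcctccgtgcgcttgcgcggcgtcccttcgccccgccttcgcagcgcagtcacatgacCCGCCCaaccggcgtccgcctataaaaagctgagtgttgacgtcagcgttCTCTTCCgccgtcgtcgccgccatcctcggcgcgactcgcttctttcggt
EIF3D: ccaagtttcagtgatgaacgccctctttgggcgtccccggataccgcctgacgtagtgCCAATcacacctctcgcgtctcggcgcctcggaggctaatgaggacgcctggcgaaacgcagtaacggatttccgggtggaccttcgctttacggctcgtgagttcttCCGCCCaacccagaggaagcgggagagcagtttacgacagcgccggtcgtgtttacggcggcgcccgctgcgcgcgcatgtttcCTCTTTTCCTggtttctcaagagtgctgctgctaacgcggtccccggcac
WDR5 peaked upstream of this start of *EEF1A1* in both treatments, *EEF2* had a WDR5 peak with DMSO outside the promoter window, and *EIF3D* had none in either list. Members with a WDR5 promoter peak with DMSO had a TOP start in 10 of 40 cases and the others in 11 of 31, 25% and 35.5%, with intervals that overlapped.

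The E-box, a site of MYC and related factors, was in 17 members' windows, 23.9% with an interval of 14.6 to 35.5%, against 8.76% of all genes and 7.78% of cytosolic ribosomal protein genes. Among CpG-rich promoters it was 23.3% of the members, with an interval of 13.4 to 36.0%, against 10.6%. It was in *EIF1B*, *EIF2AK2*, *EIF2B3*, *EIF3A*, *EIF3F*, *EIF3K*, *EIF4A3*, *EIF4B*, *EIF4E*, *EIF4G1*, *EIF4H*, *EIF4EBP1*, *EIF4EBP3*, *EIF5A2*, *EEF2K*, *EEF1AKMT4* and its readthrough gene. Members with and without a WDR5 promoter peak with DMSO held it at similar shares, 25% and 22.6%. The GC box was in 81.7% of the members against 61.3% of all genes, but 88.3% against 83.1% among CpG-rich promoters. The ETS motif was in 29.6% against 14.1%. Among CpG-rich promoters it was in 31.7%, with an interval of 20.3 to 45.0%, against 19.1%. These ETS counts take in both *EEF1E1* and its readthrough gene, and both *EIF3C* and *EIF3CL*. The CCAAT box was in 40.8% against 36.1%, the NRF1 part in 22.5% against 10.8% and the YY1 motif in 9.86% against 6.41%. Among CpG-rich promoters the CCAAT box was in 38.3% against 34%, the NRF1 part in 21.7% against 14.6%, which lay within the members' interval of 12.1 to 34.2%, and the YY1 motif in 5% against 6.64%, so the direction for YY1 turned. These are matches of letters and say nothing of binding.

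**Figure D5:**
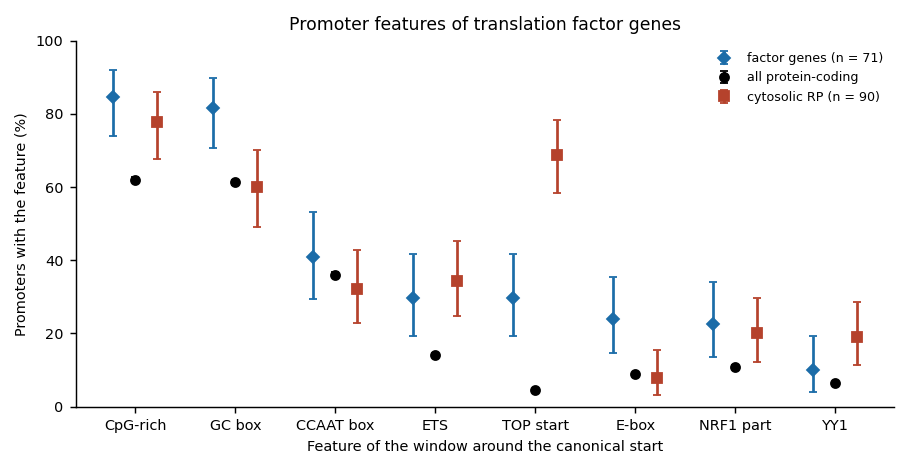
Share of promoters (y axis, percent) with each feature of the 300-base window, for the factor genes (blue diamonds), all protein-coding genes (black circles) and cytosolic ribosomal protein genes (red squares), with exact 95% intervals. The factor genes' TOP share, at 29.6%, lies between those of all genes and ribosomal protein genes, at 4.59% and 68.9%, and their E-box share, at 23.9%, lies above both.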

How the data were processed

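Peak lists of 4 CUT&RUN libraries of HSSY II cells, 1 each for WDR5 and SS18::SSX with DMSO or MS67, were analysed. The authors aligned reads to hg38 (mm10 for the spike-in) with Bowtie2, removed nonprimary alignments with Samtools and duplicates with Picard, and called peaks in each library with MACS2, whose options and control are not given in the sources used here. A stated standard of the study, -log10 q above 3 and fold above 3 (SS18::SSX) or 6 (WDR5), was tried as an alternative, since the deposited lists hold weaker peaks too. The deposited values are a fold, -log10 p, -log10 q and a score, 10 times -log10 q, which was not used. Fold was read as the ratio of summit pileup to the background MACS2 estimated around it, with 1 added to each. None of the deposited values is scaled by the spike-in.

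Start sites were those of all transcripts of protein-coding genes of GENCODE release 44 on hg38 (146431 in all). Pileups were recovered from fold and -log10 p within 0.001 for 100% of peaks, and genome-wide coverage was taken as the lowest background of each list. A promoter was called CpG-rich at an observed to expected CpG ratio of at least 0.6 and GC of at least 55%. RefSeq promoters matched 57 members. Peak assignment and pileup recovery were tested on simulated data. Shares carry exact Clopper-Pearson intervals at 95%. The precision is limited by the low pileups and by 1 library per condition. Python 3.11.15, scipy 1.17.1 and pandas 2.3.3 were used. The members and lists were chosen with earlier results of these data known. Named genes are all members, with values for the 10 strongest WDR5 promoter peaks of each treatment, each SS18::SSX peak, each MS67-only peak and the strongest in each role. The alternatives varied the window, start sites, peak position, thresholds, list length, members and background.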

Additional observations from a re-analysis of the deposited data

How the results depend on the processing

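Of 81 comparisons of 7 results with an alternative, 66 stayed within the main interval and 15 did not. The 66 include all those of the SS18::SSX share with MS67, which was 0 throughout, and of SS18::SSX loss, thereby 100% throughout. Settings that only take away peaks or members could not have moved these, so the tally is no measure of robustness. The share of members with a WDR5 promoter peak with DMSO became 77.5% within 2 kb, 21.1% at the stated thresholds of the study (-log10 q above 3, fold above 6 for WDR5 and 3 for SS18::SSX), and 31.0% both at -log10 q above 5 and with the DMSO list cut to the length of the MS67 list. With MS67 it became 59.2%, 8.45% and 9.86% in the former 3 settings, and the loss became 32.7%, 80% and 81.8%. Over all genes in these 3 settings the DMSO share was 62.7%, 11.7% and 23.6%, the MS67 share 41.8%, 7.39% and 6.74%, and the loss 38.7%, 77.1% and 82.8%, so the MS67 gap narrowed to 1.06 points at those thresholds. The SS18::SSX share with DMSO became 1.41% at -log10 q above 5 and with the shortened list, and the share with both proteins became 2.82% at the study's thresholds and 0 at -log10 q above 5 and with the shortened list.

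The gap between members and all genes changed sign in 12 of 81 comparisons. For SS18::SSX with DMSO it was 0.755 percentage points with the shortened list and 1.12 without near-identical copies, which were left out of the members but not of all genes. For WDR5 loss it was -5.97 within 2 kb, -3.45 with 1 canonical start, -6.18 with any overlap, -1.02 at -log10 q above 5, -1.90 for core factors, and -5.07 and -10.3 when lost meant no MS67 peak within 1 kb of, or overlapping, the strongest DMSO peak. For both proteins it was -2.39 within 2 kb, -1.40 at -log10 q above 5 and -0.300 with the shortened list. The causes were not tested, beyond fewer peaks at stricter thresholds. The WDR5 gap with DMSO kept its sign in every setting run, at 1.25 points among CpG-rich promoters. Leaving out the readthrough genes was chosen after seeing the data and moved no share beyond its interval. No paired analysis was possible because each condition has 1 library. With pileups of 5 to 28 fragments at the members' WDR5 promoter peaks, loss of a weak peak is not separable from depth.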
